A study of Saccharomyces cerevisiae with 7 samples.

Results

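The RNA of budding yeast, Saccharomyces cerevisiae, was compared between cells held in rapamycin for 4 h (1 library) and cells in log phase (2 libraries). These are 3 of the 7 libraries of the series, chosen by their titles, and the comparison covers the 6665 genes and 300 introns that every library lists. All libraries come from BY4741, a laboratory strain with 1 set of chromosomes and mating type a, in which all or part of HIS3, LEU2, MET17 and URA3 is deleted. Log-phase cultures were seeded at an OD600 of 0.2 in synthetic complete (SC) medium and harvested at an OD600 of 0.5. For rapamycin, cultures seeded the same way grew for 4 h to early log phase, were collected by vacuum filtration, moved to fresh SC medium with 100 nM rapamycin and harvested after 4 h. A further library was harvested after 1 h of the same treatment, and it is used here only to place the later time. A culture moved to fresh medium without rapamycin was not analysed here, so the drug, the fresh medium and the added hours cannot be told apart. Whether the log-phase libraries are separate cultures is not stated in the labels, and the spread behind each p-value may therefore be technical.

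Rapamycin binds the small prolyl isomerase Fpr1, and the pair inhibits TOR complex 1 (TORC1), the kinase complex with which yeast couples growth to nitrogen supply. While TORC1 is active, genes for ribosomal proteins and for ribosome assembly are highly transcribed, and the GATA factors Gln3 and Gat1, the stress factors Msn2 and Msn4 and the machinery of autophagy are held back. Rapamycin is known to turn all of these the other way. Introns are normally removed from transcripts as lariats, opened by a debranching enzyme and degraded, so that intron RNA is scarce beside the spliced messenger RNA.

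The 4 h library held 6781835 gene reads, against 6714865 and 1875036 in log-phase replicates 1 and 2. Levels are given as CPM, read counts scaled to the same total of gene reads in each library, with the log-phase replicates in this order. The log-phase libraries were counted as separate samples, since their counts differed beyond sampling noise, with a chi-square of 15.7 per degree of freedom. Replicate 2 was the higher of the pair for 34 of 36 general stress genes but for 5 of 55 genes of the small-subunit processome, and the part of this in the results was not tested. LEU2 and MET17 had at most 1 read in each of the log-phase and rapamycin libraries, and HIS3, whose deletion leaves part of the gene, had 67.2 to 240 CPM. URA3 had 1 and 0 reads in log phase, 3 at 1 h and 44 at 4 h. At 4 h its ratio to the pooled log-phase CPM was 55.7, with a 95% counting interval of 9.49 to 2251. The source of these reads, at a gene deleted in whole or part in this strain, was not tested. Whether they bear on the purity of the only 4 h library was not tested either. The a-cell genes STE2, MFA1, MFA2, BAR1 and STE6 were present at 32.6 to 673 CPM in all of these libraries, while the alpha-pheromone genes MF(ALPHA)1 and MF(ALPHA)2 had 0 to 3 reads. Other genes named for alpha cells did have reads: SAG1, alpha-agglutinin, stood at 27.2 and 31.5 CPM in log phase, 65.2 at 1 h and 79.3 at 4 h (log2 1.12 ± 0.30 against log phase, adjusted p = 0.0261), and STE3, the a-factor receptor, at 5.21 and 12.3, 9.43 and 12.8.

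At 4 h, 863 of the 5827 genes tested were higher than in log phase (14.8%) and 669 were lower (11.5%), by edgeR's quasi-likelihood test at a Benjamini-Hochberg adjusted p of 0.05. The 4 h condition has 1 library, so its spread is assumed to be that of the replicate pairs in log phase and in saturated culture, and it has no replicate check of its own. The count rested in part on each log-phase library: without replicate 1 it was 392 higher and 296 lower, without replicate 2 it was 610 and 494, and 363 of the genes called higher and 281 of those called lower kept their call in both cases. The fall count was 1535 without saturated replicate 1 and 1518 without saturated replicate 2. The median log2 change over all genes tested was 0.06 with TMM scaling and 0.39 with plain library totals. Under plain totals the split became 1284 higher and 423 lower, 75.2% of calls being rises. Fitted log2 changes are therefore given with TMM scaling, close to the median gene. CPM values, summed levels and shares of reads use plain totals, and so run higher at 4 h than the fitted changes. The same holds for gene positions against both log-phase libraries: 3449 of the 5827 genes tested lay above both and 1775 below both. In bulk RNA, fewer cells with a transcript and less of it in each cell cannot be told apart.

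**Figure D1:**
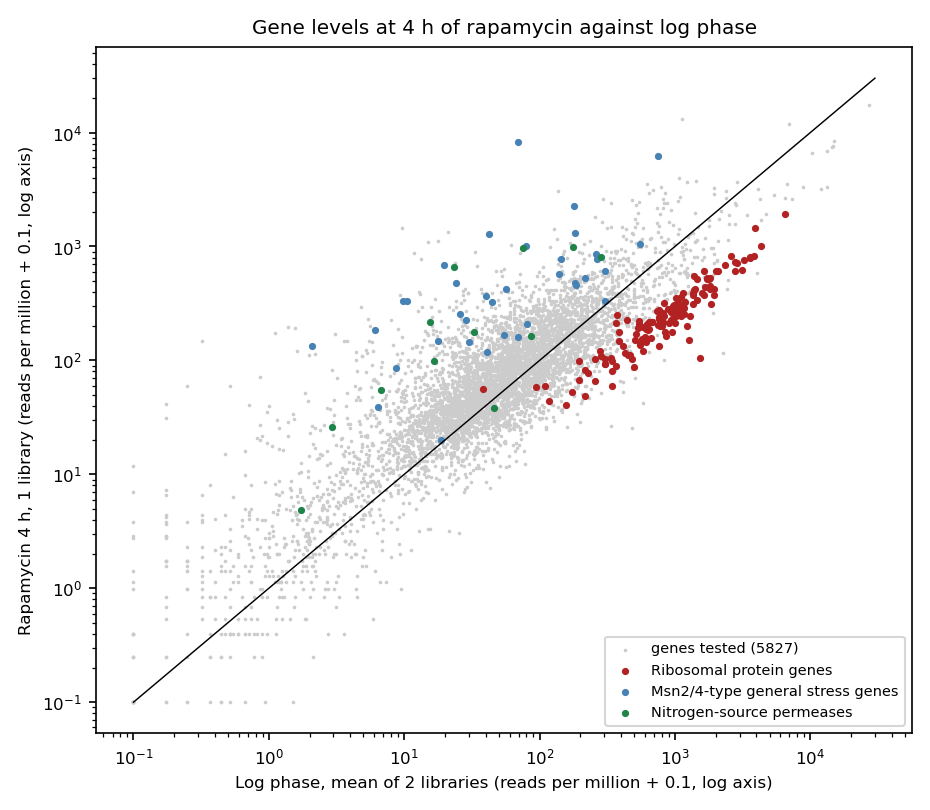
Level of each gene tested in the rapamycin 4 h library (y axis) against the mean of the 2 log-phase libraries (x axis), both in CPM plus 0.1 on log axes. Points are genes, the line marks equal levels, and colours mark the ribosomal protein genes (red), the general stress genes (blue) and the nitrogen-source permeases (green). The ribosomal protein genes lie below the line in a band, and most of the stress genes and permeases lie above it.

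The genes with the largest rises came from several functions. HSP26 (YBR072W, chromosome II, 382030 to 382674), a small heat-shock chaperone, stood at 39.0 and 98.1 CPM in log phase, 920 at 1 h and 8329 at 4 h, a log2 change of 6.63 ± 0.72 (SE) with an adjusted p of 0.000742. PIR3, a cell wall glycoprotein of a family with close copies, went from 7.30 and 11.7 CPM to 1466 (log2 7.0 ± 0.57). HXT5, a hexose transporter of slowly growing cells, went from 9.23 and 26.1 CPM to 1112, and GDH3, a glutamate dehydrogenase, from 9.08 and 14.4 to 879. SHH3, a paralog of the succinate dehydrogenase subunit gene SDH3, rose from 1.49 and 1.07 CPM to 196. In each of these genes the 4 h library lay far above both log-phase libraries.

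HSP30, a membrane protein made under stress, rose from 15.9 and 13.9 CPM to 1091 (log2 5.85 ± 0.56). NDE2, an external NADH dehydrogenase of mitochondria, rose from 3.57 and 5.87 CPM to 293, and POT1, the thiolase of peroxisomal fatty acid oxidation, from 0.149 and 1.60 to 35.0. SPS100, named for a role in the spore wall, rose from 1.49 and 0.533 CPM to 175, and LEE1, a zinc-finger protein, from 1.34 and 1.60 to 191. Other genes were almost silent in log phase, so that only a ratio with its counting interval is given. DAL80, a GATA repressor of nitrogen catabolic genes, had 1 read over both log-phase libraries and 280 at 4 h, a CPM ratio of 355 (95% interval 63.1 to 14060). DAK2, a dihydroxyacetone kinase, had 3 reads and then 996, a ratio of 421 (interval 144 to 2043). ISF1 had 2 and then 400 (ratio 253, interval 69.7 to 2099), DPA10 1 and then 212 (269, interval 47.7 to 10660), and RRT1 3 and then 277 (117, interval 39.6 to 571).

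Among called genes with a standard symbol and a mean of at least 10 CPM, ALD6, the cytosolic acetaldehyde dehydrogenase, fell most, from 1803 and 2698 CPM to 116 (log2 −4.60 ± 0.82, adjusted p = 0.00547). CWP1, a cell wall mannoprotein, went from 311 and 659 CPM to 25.4, and UTR2, a chitin transglycosylase, from 601 and 558 to 42.3. PHO3, an acid phosphatase, fell from 286 and 382 CPM to 26.3. Several were enzymes of nucleotide supply. URA1, dihydroorotate dehydrogenase, fell from 864 and 795 CPM to 101, FUR1, uracil phosphoribosyltransferase, from 211 and 185 to 28.6, and URA7, CTP synthase, from 439 and 385 to 64.3. IMD4, an IMP dehydrogenase, fell from 515 and 503 CPM to 70.5, and RKI1, ribose-5-phosphate isomerase, from 76.8 and 77.9 to 12.2.

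The same ranking held ribosome and translation genes. RPL9A fell from 1609 and 1454 CPM to 104 (log2 −4.20 ± 0.54) and RPS22A from 1335 and 1191 to 151; both have a close copy elsewhere in the genome, so the split of reads between copies is uncertain. ASC1, a scaffold protein on the ribosome, fell from 3952 and 4123 CPM to 586, and TEF4, a subunit of elongation factor 1B, from 1941 and 1867 to 263. CLB6, an S-phase cyclin, fell from 22.2 and 20.8 CPM to 3.10, and INA1 from 514 and 313 to 52.9. For all 15 of the largest falls the log-phase libraries lay above the 4 h library without overlap. That is part of how they were chosen, as it is for the rises.

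The genes of the rapamycin target itself and of its binding protein were not called. With 1 library at 4 h this does not show that they were unchanged. TOR1 stood at 345 and 322 CPM in log phase and 718 at 4 h (log2 0.78 ± 0.34, adjusted p = 0.12), and TOR2 at 298 and 281 and then 564 (0.63 ± 0.35, adjusted p = 0.211). FPR1, which encodes the rapamycin-binding protein, stood at 282 and 329 CPM and then 261 (−0.55 ± 0.34, adjusted p = 0.255). Of 29 genes for TORC1, its regulators and its effectors, 5 rose, with a list median of 0.56. They were RIM15, a kinase of the entry into quiescence (135 and 157 CPM, then 579), LST8, a TORC1 subunit (42.6 and 44.8, then 158), NPR1, a kinase that acts on permeases (78.3 and 71.5, then 270), and IML1 and RTC1, of the SEACIT and SEACAT complexes (log2 1.08 ± 0.32 and 0.98 ± 0.30). Over all genes tested 14.8% rose, a share near that of this list. The number also depended on the library left out: 0 when log-phase replicate 1 was dropped, 2 when replicate 2 was, and 9 without either saturated library in turn.

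Genes of nitrogen scavenging, which Gln3 and Gat1 activate, were prominent. Of 12 permeases for ammonium, proline, urea, allantoin and other nitrogen sources, 9 rose (median log2 2.19), and leaving out either log-phase or either saturated library did not move this count by over 1.5 times. MEP2, the high-affinity ammonium transporter, went from 19.8 and 26.7 CPM to 667 (log2 4.54 ± 0.52, adjusted p = 0.000877). GAP1, the general amino acid permease, went from 63.3 and 86.9 CPM to 961, DUR3, a urea transporter, from 10.3 and 20.3 to 217, UGA4, the GABA permease, from 1.94 and 3.73 to 25.8, and PUT4, the proline permease, from 6.26 and 6.93 to 55.4. The summed level of the list was 790 and 744 CPM in log phase, 5723 at 1 h and 4221 at 4 h.

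Of 16 genes that break down allantoin, urea, proline, GABA and arginine, 8 rose and 2 fell (median 1.61). PUT1, proline oxidase, rose from 6.70 and 4.80 CPM to 120, DAL3, ureidoglycolate lyase, from 3.72 and 5.33 to 56.3, DAL2, allantoicase, from 6.999 and 10.7 to 55.9, UGA2, succinate semialdehyde dehydrogenase, from 27.0 and 48.0 to 279, and AMD2, a putative amidase, from 14.2 and 18.1 to 171. CAR1, arginase, went the other way, at 128 and 128 CPM in log phase, 423 at 1 h and 48.8 at 4 h (log2 −1.72 ± 0.33 against log phase), and ASP1, a cytosolic asparaginase, was the other gene that fell (253 and 249 CPM, then 80.4). Of the 5 genes for GATA factors and URE2, 3 rose, and only 1 without log-phase replicate 2. Besides DAL80 they were GAT1 (66.7 and 53.3 CPM, then 231) and GLN3 (59.1 and 57.6, then 179), while GZF3 (log2 0.77 ± 0.30) and URE2 (0.33 ± 0.33), which encodes the inhibitor of Gln3, did not pass the test.

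Amino acid permeases of nutrient-rich growth were divided, 3 of 15 higher and 3 lower, beside 14.8% and 11.5% of all genes tested. TAT1 (347 and 362 CPM, then 80.2), GNP1 (599 and 522, then 157) and MMP1 (77.0 and 68.8, then 22.7) fell, whereas MUP3 (25.5 and 28.8, then 219), AGP3 (7.89 and 10.1, then 63.9) and CAN1, the arginine permease (172 and 160, then 495), rose. The fall count was 5 without either saturated library in turn. In glutamate and glutamine synthesis, 2 of 4 genes rose, and 1 without either log-phase library in turn: GDH3, above, and GDH1 (965 and 726 CPM, then 2974), while GLN1 (log2 0.93 ± 0.42) and GLT1 (0.41 ± 0.48) did not pass. Of 8 targets of the retrograde response, by which mitochondria signal to the nucleus, CIT2 (347 and 460 CPM, then 1475) and PYC1 (461 and 609, then 1970) rose, and neither did when either log-phase library was left out. The others were DLD3 (0.52 ± 0.40), CIT1 (1.07 ± 0.37), ACO1 (−0.41 ± 0.42), IDH1 (−0.56 ± 0.35), IDH2 (−0.71 ± 0.37) and ATO3 (−1.53 ± 0.77).

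Amino acid synthesis genes, most of them targets of the transcription factor Gcn4, rose in 13 of 45 cases (median 0.72), in 6 without log-phase replicate 2 and in 21 and 20 without saturated replicates 1 and 2. LEU1 (YGL009C), isopropylmalate isomerase of leucine synthesis and an iron-sulfur enzyme, stood at 1466 and 789 CPM in log phase, 322 at 1 h and 13190 at 4 h, the highest level of any member of this list. Its log2 change was 3.21 ± 0.65 against log phase (adjusted p = 0.0086). ARG3, ornithine carbamoyltransferase, rose from 40.1 and 28.3 CPM to 293, CPA1, of carbamoyl phosphate synthesis, from 161 and 142 to 914, ILV2, acetolactate synthase, from 694 and 539 to 3543, and BAT2, a branched-chain aminotransferase, from 147 and 173 to 793. The strain lacks LEU2, the enzyme after LEU1, and the part of this in the level of LEU1 was not tested.

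Of 23 genes of methionine and sulfate assimilation, 14 rose and 2 fell (median 1.52), or 9 and 1 without log-phase replicate 2. The fall count was 0 when replicate 1 was dropped, and it was 4 without either saturated library in turn. The sulfate permeases SUL1 (11.0 and 7.47 CPM, then 377) and SUL2 (92.0 and 51.2, then 870) rose most, with MET28, a regulator of the pathway (17.0 and 12.3, then 175), STR3, cystathionine beta-lyase (31.3 and 45.3, then 330), and MET2, homoserine acetyltransferase (68.4 and 48.0, then 424). SAM2 fell from 947 and 730 CPM to 336, and SAM1 fell as well (872 and 968 CPM, then 387); both encode S-adenosylmethionine synthetase and are close copies. In purine synthesis 4 of 18 genes fell, beside 11.5% of all genes tested, with a median of −0.04 for the list. They were IMD4, above, GUA1, GMP synthase (840 and 732 CPM, then 216), IMD3, another IMP dehydrogenase (525 and 497, then 224), and ADO1, adenosine kinase (728 and 780, then 282).

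Autophagy genes rose in 24 of 34 cases, with a median log2 change of 1.63, and in 12 without log-phase replicate 1. At 4 h, 33 of the 34 lay above both log-phase libraries in CPM, beside 3449 of all 5827 genes tested. ATG39, the receptor for autophagy of the nuclear envelope, went from 5.36 and 5.33 CPM to 147 (log2 4.44 ± 0.33, adjusted p = 0.000375), ATG8, the ubiquitin-like protein of the autophagosome membrane, from 9.98 and 8.53 to 101, and ATG1, the kinase that starts autophagy, from 55.0 and 49.6 to 547. ATG41 (25.02 and 20.3 CPM, then 275) and ATG34, a receptor for vacuolar enzymes (9.38 and 17.6, then 131), rose as well. The summed level of the list was 896 and 1086 CPM in log phase, 2786 at 1 h and 4084 at 4 h.

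Vacuolar hydrolases and their inhibitors rose in 7 of 14 cases, and in 4 without log-phase replicate 1. The protease inhibitors PAI3 (2.83 and 8.53 CPM, then 91.7) and PBI2 (32.2 and 54.4, then 225) rose together with AMS1, alpha-mannosidase (29.3 and 94.4, then 1036), PRB1, proteinase B (164 and 352, then 1829), and ATH1, acid trehalase (47.1 and 92.8, then 442). All 14 genes of this list were higher in log-phase replicate 2 than in replicate 1. Beside this list and the transporters below, 14.8% of all genes tested were called higher. CPS1, vacuolar carboxypeptidase S, stood at 300 and 429 CPM in log phase, 9604 at 1 h and 882 at 4 h, so that its large level at 1 h was mostly gone (4 h against log phase, log2 0.95 ± 0.55, adjusted p = 0.233). Among 13 vacuolar amino acid transporters RTC2 (7.60 and 3.73 CPM, then 144), AVT7 (81.8 and 106, then 293) and AVT4 (102 and 92.8, then 246) rose, or 1 of them without log-phase replicate 1 and 1 without replicate 2.

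General stress genes of the Msn2/4 type rose in 24 of 36 cases, with a median of 2.56, and neither a log-phase nor a saturated library left out moved that count by over 1.5 times. Of these, 18 kept their call whichever log-phase library was left out. Their summed level was 2665 and 6240 CPM in log phase, 20970 at 1 h and 31730 at 4 h. Besides HSP26, the largest rises were in SIP18, a hydrophilin (2.38 and 1.60 CPM, then 133), GRE1, a related hydrophilin (4.47 and 14.9, then 334), DDR2 (10.6 and 28.3, then 686) and TKL2, a transketolase (3.43 and 8.53, then 186). Among 13 regulators of stress and quiescence 6 rose, or 2 and 3 without log-phase replicates 1 and 2. They included MSN4 itself (49.4 and 84.3 CPM, then 481), the zinc-finger factor gene USV1 (11.8 and 18.1, then 169), RPH1, a histone demethylase (52.1 and 68.8, then 239), YAK1, a kinase of growth arrest whose span overlaps the gene IRC9 (94.0 and 94.4, then 306), and HSF1, the heat-shock factor (101 and 92.8, then 265).

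Storage carbohydrate genes differed between the glycogen and trehalose pathways in their counts, a difference not tested. Of 14 glycogen genes 7 rose and 1 fell (median 1.63), led by GAC1, a targeting subunit of the glycogen phosphatase (3.57 and 7.47 CPM, then 199), GDB1, the debranching enzyme of glycogen (77.1 and 192, then 1173), and GLC3, the branching enzyme (31.3 and 67.2, then 340), with the related subunit genes GIP2 (log2 2.78 ± 0.44) and PIG2 (2.74 ± 0.35). The fall was in PGM1, a phosphoglucomutase (194 and 212 CPM, then 65.2). All 14 were higher in log-phase replicate 2 than in replicate 1. The fall count was 3 without either saturated library in turn. Of 7 trehalose genes NTH1, neutral trehalase (174 and 250 CPM, then 1054), and ATH1 passed the test, and 1 did without log-phase replicate 1. The synthesis genes TPS1 (265 and 418 CPM, 1423 at 1 h, 668 at 4 h), TPS2 (268 and 456, 991, 716), TPS3 (240 and 316, 689, 397) and TSL1 (262 and 692, 2314, 1108) did not, and neither did NTH2 (log2 1.06 ± 0.35, adjusted p = 0.0534).

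Genes of carbon and energy metabolism rose in many cases. Of 44 genes of the respiratory chain and ATP synthase 32 rose (median 1.25), or 11 without log-phase replicate 1 and 15 without replicate 2, and 43 lay above both log-phase libraries. Examples besides NDE2 are NDI1, the internal NADH dehydrogenase (55.3 and 75.2 CPM, then 309), QCR10, a subunit of complex III (23.7 and 28.8, then 174), CYC7, an isoform of cytochrome c (3.57 and 7.47, then 33.9), and STF1, of ATP synthase regulation (13.3 and 26.1, then 135). In the tricarboxylic acid cycle 8 of 17 rose, or 3 without log-phase replicate 1, among them the succinate dehydrogenase subunit genes SDH2 (45.3 and 58.1 CPM, then 608), SDH1 (87.6 and 109, then 595) and SDH4 (33.2 and 45.3, then 215), with MDH1, malate dehydrogenase (log2 1.66 ± 0.33), and CIT3, a citrate synthase (1.71 ± 0.45).

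In gluconeogenesis and the glyoxylate cycle 8 of 15 genes rose, with a median of 2.71. CAT8, the activator of these genes, rose from 12.4 and 19.7 CPM to 240, SIP4, a related activator, from 5.06 and 6.4 to 67.2, SFC1, a succinate-fumarate transporter, from 0.596 and 1.60 to 25.4, JEN1, the lactate transporter, from 3.28 and 5.33 to 45.1, and CAT2, carnitine acetyltransferase, from 5.96 and 18.7 to 135. Fatty acid oxidation genes rose in 9 of 18 cases, or 3 without log-phase replicate 1. Besides POT1 they included PXA2, a peroxisomal transporter (9.23 and 11.7 CPM, then 101), CRC1, a carnitine carrier (3.13 and 2.67, then 28.5), POX1, acyl-CoA oxidase (2.98 and 4.80, then 25.7), and FAA2, an acyl-CoA synthetase whose span overlaps BUD25 (13.6 and 25.1, then 83.8). Of 13 hexose transporters and glucose sensors 4 rose and 1 fell. HXT4, a transporter with close relatives, stood at 19.1 and 22.9 CPM in log phase, 23.8 at 1 h and 1344 at 4 h, HXT3 at 504 and 453, 476 and 2536, and the sensor gene SNF3 at 18.0 and 26.7, 46.1 and 110, while HXT1, the transporter of high glucose, fell from 343 and 441 CPM to 65.8. The fall count was 2 without either saturated library in turn.

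In the iron and phosphate lists the share that rose was near the 14.8% of all genes tested, of which 11.5% fell. Of 31 genes of the iron regulon 5 rose: LEU1, ISU2 (40.2 and 44.3 CPM, then 136), CCC2 (53.0 and 68.8, then 178), FRE1 (59.3 and 57.1, then 169) and FRE6 (60.6 and 68.8, then 166). The count was 1 without log-phase replicate 1 and 14 without either saturated library in turn. Of the summed level of this list, 16340 CPM at 4 h, LEU1 made 13190. In the phosphate regulon 3 of 20 rose, or 1 without log-phase replicate 1: PHM8, a nucleotidase (18.6 and 34.1 CPM, then 317), PHO84, the high-affinity phosphate transporter (57.3 and 79.5, then 205), and PHO81, an inhibitor of the cyclin-dependent kinase of the pathway (89.1 and 74.1, then 236). In sterol synthesis 5 of 25 fell, namely ERG13 (473 and 499 CPM, then 196), ERG10 (488 and 566, then 227), MVD1 (205 and 200, then 88.8), ERG2 (log2 −1.17 ± 0.32) and ERG6 (−1.12 ± 0.36), or 1 and 2 without log-phase replicates 1 and 2 and 9 without either saturated library in turn. Of 35 proteasome genes the ubiquitin gene UBI4 (108 and 229 CPM, then 1079) and RPN4, the activator of proteasome genes (131 and 91.2, then 415), rose, and 1 of them without either log-phase library in turn. The median of that list was −0.29, and 0.04 under plain library totals. Under plain totals the medians of the purine and rich-growth permease lists also turned from below to above 0, to 0.28 and 0.06.

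**Figure D2:**
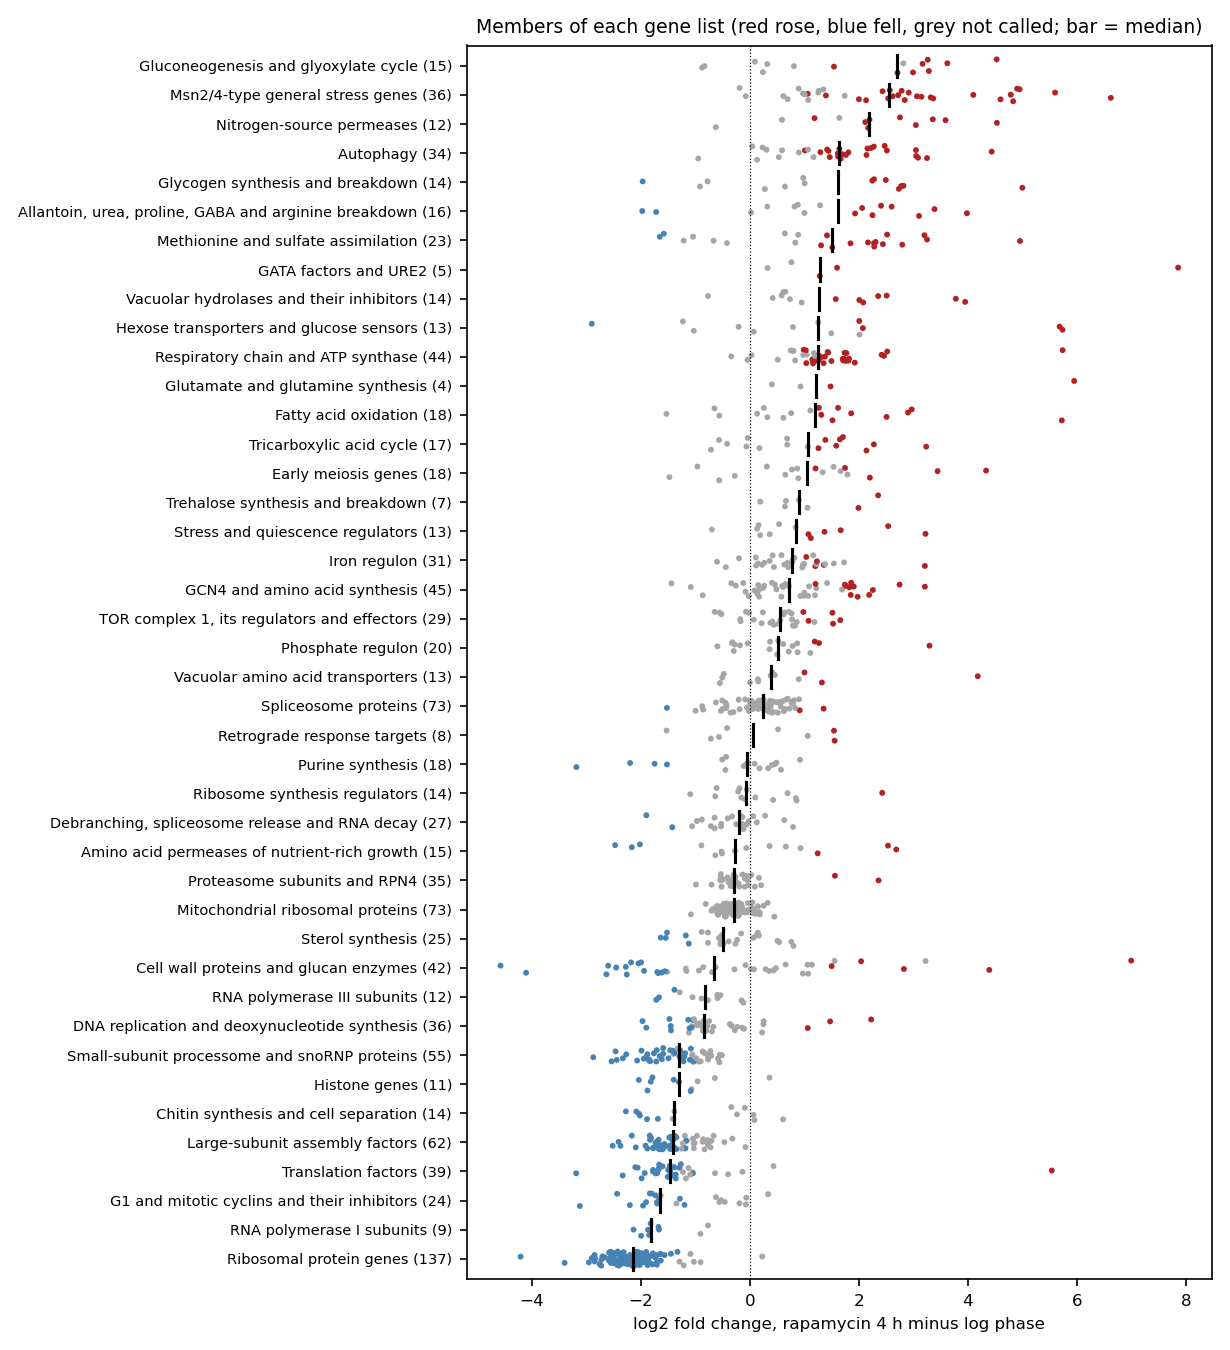
Fitted log2 fold change at 4 h of rapamycin minus log phase (x axis) for every tested member of the 42 gene lists (rows, number tested in brackets, ordered by median). Points are genes, red where called higher, blue where called lower and grey where not called, and the black bar is the list median. Medians run from −2.14 for ribosomal protein genes to 2.71 for gluconeogenesis and the glyoxylate cycle.

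The largest share of falls was in the ribosomal protein list. Of 137 ribosomal protein genes 131 fell, with a median log2 change of −2.14, and 111 of them kept the call whichever log-phase library was left out. Under plain library totals the median was −1.81. Together these genes took 16.2% and 14.2% of gene reads in log phase, 1.87% at 1 h and 4.11% at 4 h. Beside RPL9A and RPS22A, the largest falls were in RPL22A (1234 and 1222 CPM, then 199), RPS9B (2016 and 1686, then 312) and RPL11A (556 and 438, then 86.9), which all have a close copy. At 4 h, 136 of the 137 were below both log-phase libraries in CPM, beside 1775 of all 5827 genes tested. Mitochondrial ribosomal protein genes, encoded by the nucleus for another ribosome, were a separate case. Of 73 tested, 0 were called by edgeR, 1 had an unadjusted p under 0.05 and 0 were called by DESeq2, with a median of −0.29 that became 0.04 under plain library totals. Without saturated replicates 1 and 2 in turn, 12 and 10 of them were called lower.

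Ribosome assembly genes fell less than the ribosomal protein genes at 4 h by their medians, a difference not tested. Of 55 genes of the small-subunit processome and snoRNP proteins 36 fell (median −1.29), and 14 without log-phase replicate 1. The count was 55 without either saturated library in turn and 23 under plain totals. NOP1, the methyltransferase fibrillarin, went from 559 and 411 CPM to 83.5, NOP58 from 537 and 423 to 104, NOP56 from 843 and 628 to 168, SNU13 from 284 and 196 to 55.7 and GAR1 from 151 and 102 to 31.9; these are core proteins of small nucleolar ribonucleoproteins. Of 62 large-subunit assembly factors 41 fell (median −1.41), and 11 without log-phase replicate 1. HAS1 (226 and 184 CPM, then 45.1) and DRS1 (233 and 179, then 50.1) are RNA helicases, and NOP13 (171 and 124, then 35.1), MRT4 (127 and 94.4, then 31.3) and MAK16 (84.4 and 73.1, then 23.3) act in pre-ribosomes.

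RNA polymerase I, which makes the large ribosomal RNA precursor, lost transcript levels in 7 of its 9 listed subunits, and in 2 without log-phase replicate 1. Its largest subunits RPA190 (1383 and 1120 CPM, 63.2 at 1 h, 446 at 4 h) and RPA135 (945 and 805, 34.0, 344) fell, as did RPA49 (154 and 118, 6.25, 39.1), RPA43 (128 and 101, 4.24, 36.3), RPA34 (104 and 67.2, 5.30, 29.8), RPA12 (32.9 and 36.8, 3.60, 12.1) and RPC40 (253 and 176, 34.1, 85.4). RPA14, whose span overlaps YDR157W, and RPC19 did not pass (log2 −0.90 ± 0.35 and −0.77 ± 0.44). Of 12 RNA polymerase III subunits RPC40, RPC17 and RPC31 fell, 0 without log-phase replicate 1 and 9 without either saturated library in turn. Under plain totals 0 of the 12 fell. Of 14 genes that regulate ribosome synthesis CRF1, a corepressor of ribosomal protein genes, rose from 4.47 and 6.93 CPM to 36.1, and without either saturated library in turn the count was 3 higher and 3 lower.

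Of 39 translation factor genes 28 fell and 1 rose (median −1.46), and 5 fell without log-phase replicate 1. The pair of elongation factor 3 genes moved in opposite directions. YEF3, the main gene, went from 14870 and 11890 CPM to 3344 (log2 −2.33 ± 0.55), and HEF3, its alternative copy, from 12.96 and 13.3 to 770 (5.54 ± 0.37, adjusted p = 0.000218). At 4 h YEF3 was still the higher of the pair in CPM. Other falls were in TEF4, EFT2 (521 and 390 CPM, then 134) and TIF1 (205 and 171, then 56.9), of which EFT2 and TIF1 have near-identical copies.

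**Figure D3:**
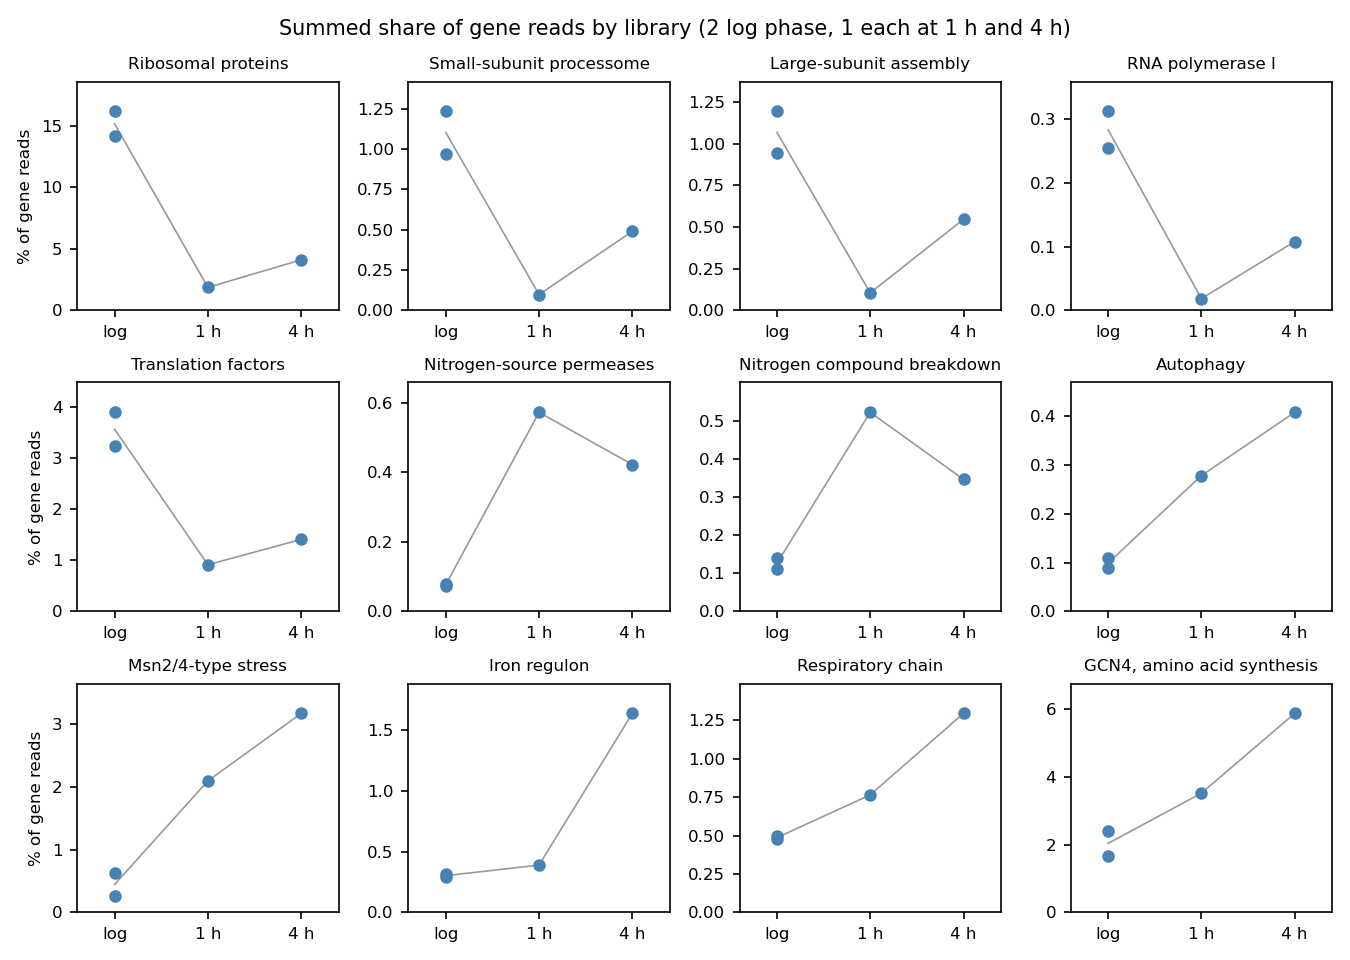
Summed share of gene reads, in percent, taken by each of 12 gene lists in the log-phase libraries (2 points), at 1 h and at 4 h of rapamycin (1 point each). The grey line joins the log-phase mean to the later libraries, and each panel has its own y axis from 0. Ribosomal protein genes went from 16.2% and 14.2% to 1.87% and 4.11%. The iron regulon went from 0.312% and 0.291% to 0.389% and 1.63%, and at 4 h 13190 of its 16340 CPM came from the single gene LEU1.

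Among cell cycle genes, falls were also called. Of 24 G1 and mitotic cyclins and their inhibitors 14 fell (median −1.65), and 6 without log-phase replicate 1. CLB2 (111 and 113 CPM, then 26.0) and CLB1 (95.2 and 118, then 34.2), the mitotic cyclins, fell with CLB6, the G1 cyclin PCL2 (30.7 and 29.9, then 10.2) and FAR1, an inhibitor of G1 cyclins (191 and 251, then 60.01). At 1 h CLB2 stood at 105 CPM and CLB1 at 108, near their log-phase levels. Of 11 histone genes 7 fell, or 4 without either log-phase library in turn, among them HTA2 (333 and 339 CPM, then 103), HHF2 (267 and 252, then 88.8), HTB2 (325 and 288, then 109), HTA1 (438 and 430, then 207) and the variant HTZ1 (72.2 and 85.9, then 28.6). Most core histone genes have a near-identical copy.

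In DNA replication and deoxynucleotide synthesis 9 of 36 genes fell and 3 rose, beside 11.5% and 14.8% of all genes tested. The ribonucleotide reductase genes were divided: RNR1, a large subunit, fell from 924 and 825 CPM to 281, while RNR3, the alternative large subunit, rose from 8.94 and 19.2 to 76.7 and RNR4, a small subunit, from 479 and 529 to 1756, as did the other small subunit, RNR2 (444 and 536 CPM, then 1283). POL30, the sliding clamp (132 and 113 CPM, then 41.3), and CDC9, DNA ligase (102 and 84.8, then 42.5), fell. Without log-phase replicates 1 and 2 the falls were 2 and 3 and the rises 0 and 1, and the falls were 24 without either saturated library in turn and 2 under plain totals.

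Of 42 cell wall genes 5 were called higher and 15 lower, beside 14.8% higher and 11.5% lower over all genes tested. The share that rose was thus not above that of all genes. GSC2, a glucan synthase catalytic subunit, rose from 168 and 419 CPM to 2591, alongside PIR3, PST1 (115 and 159 CPM, then 705) and CCW14 (270 and 301, then 1014), which encode cell wall proteins. DAN1, a mannoprotein of anaerobic cells, had 1 read over both log-phase libraries and 25 at 4 h, a CPM ratio of 31.7 (95% counting interval 5.18 to 1300). The rise count was 3 without either log-phase library in turn and 9 without either saturated library. ECM33, the gene of a GPI-anchored cell wall protein, fell from 1507 and 1772 CPM to 536 (log2 −1.94 ± 0.54, adjusted p = 0.0284), a call lost under plain library totals. ACT1, actin, stood at 2347 and 2674 CPM and then 1898 (−0.73 ± 0.43, adjusted p = 0.235). Of 14 genes of chitin synthesis and cell separation 6 fell, among them EGT2 (632 and 597 CPM, then 160), DSE3 (82.5 and 91.2, then 26.5), DSE4 (403 and 485, then 151), CHS2, a chitin synthase (192 and 191, then 59.4), and AMN1, of the exit from mitosis (262 and 287, then 81.4). Of 18 early meiosis genes 5 rose, or 2 without either log-phase library in turn. RIM4 (14.9 and 35.2 CPM, then 137), REC8 (1.49 and 2.67, then 25.5), IME2 (10.7 and 10.1, then 30.5) and MND1 (1.19 and 2.13, then 6.19) were low throughout, and REC114 had 1 log-phase read and 24 at 4 h (CPM ratio 30.4, interval 4.96 to 1250).

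Few genes of the protein machinery that removes and destroys introns were called, beside 14.8% higher and 11.5% lower over all genes tested. With 1 library at 4 h this does not show that the others were unchanged. Of 73 spliceosome protein genes LEA1 (16.5 and 17.1 CPM, then 54.0) and PRP5 (53.9 and 58.7, then 133) rose and SMD1, whose span overlaps PRP38, fell (23.8 and 30.9, then 11.8). None of these calls was made without log-phase replicate 1 or without replicate 2. Of 27 genes for debranching, spliceosome release and RNA decay 2 fell: PRP43, the helicase that releases lariat introns and also acts in ribosome assembly (244 and 210 CPM, 15.3 at 1 h, 76.7 at 4 h), and MTR4, a helicase of nuclear RNA decay (362 and 272, 24.2, 149). The count was 1 without log-phase replicate 1 and 9 without either saturated library in turn. By CPM, 60 of the 73 spliceosome genes lay above both log-phase libraries, as did 3449 of all 5827 genes tested. The list median was 0.24.

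Introns were followed relative to the gene that holds them, as intron reads per 100 reads of the host gene. Host reads appear to count exons only. An intron read may come from an unspliced transcript or from an excised intron, and the counts do not tell these apart. Of 270 introns tested 172 were higher relative to host at 4 h than in log phase (63.7%) and 2 were lower (0.741%), 64.4% in either direction, by an edgeR fit over intron and host reads. The median log2 change was 1.55. The limma test on log ratios called 116 higher and 1 lower, and without log-phase replicate 1 the counts were 131 and 1. By position, 227 of the 270 lay above both log-phase libraries and 8 below both. Introns took 1.28% and 1.33% of all reads in log phase, 0.826% at 1 h and 1.56% at 4 h. Of the intron reads 66.9% and 69.1% in log phase, 86.9% at 1 h and 64.1% at 4 h came from 11 introns of 8 genes whose spans hold a small nucleolar RNA gene, so the remainder was 0.423% and 0.413% of all reads in log phase, 0.108% at 1 h and 0.56% at 4 h.

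Intron and host levels were also followed separately for ribosomal protein genes and for other genes, and the difference between these classes was not tested. Of 104 ribosomal protein introns 100 rose relative to host (median log2 1.76), with medians of 3.83 and 4.33 intron reads per 100 host reads in log phase, 4.18 at 1 h and 14.0 at 4 h. The host gene fell for 100 of these 104, with a median of −2.11, while the intron level by itself, scaled by gene reads, was called higher for 2 and lower for 2, with a median of −0.41. Summed over the 98 that share their gene with no small nucleolar RNA, intron reads made 3733 and 3562 CPM in log phase, 455.5 at 1 h and 3516 at 4 h. Their host genes summed to 94000 and 82870 CPM in log phase, 10380 at 1 h and 24760 at 4 h. In CPM, which uses plain totals, intron and host thus were low together at 1 h. At 4 h the intron sum stood near its log-phase values in CPM while the host sum did not.

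Among the 166 other introns 72 rose relative to host and 2 fell (median 1.29), and the medians per 100 host reads were 2.80 and 2.70 in log phase, 2.35 at 1 h and 6.88 at 4 h. Here 53 were called higher and 2 lower by level alone, with a median of 1.33, and the host rose for 22 and fell for 19 of 165 hosts tested. Without hosts whose span holds a small nucleolar RNA gene, 191 such introns summed to 553 and 622 CPM in log phase, 632 at 1 h and 2175 at 4 h. The host sums were 27860, 31920, 35490 and 34530 CPM. Hosts that are themselves small nucleolar RNA genes were not taken out, such as SNR17B, a U3 gene (1214, 1623, 1620 and 1108 CPM). The host sums are thus not of messenger RNA alone. Over all introns, 55 rose in level (20.4%) and 4 fell (1.48%), but 11 and 1 when log-phase replicate 1 was dropped, 37 and 2 when replicate 2 was, and 69 and 48 or 67 and 49 without saturated replicate 1 or 2. Of the 172 introns that rose relative to host, 43 also rose in level, 112 had a host that fell, 4 had both and 21 had neither.

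**Figure D4:**
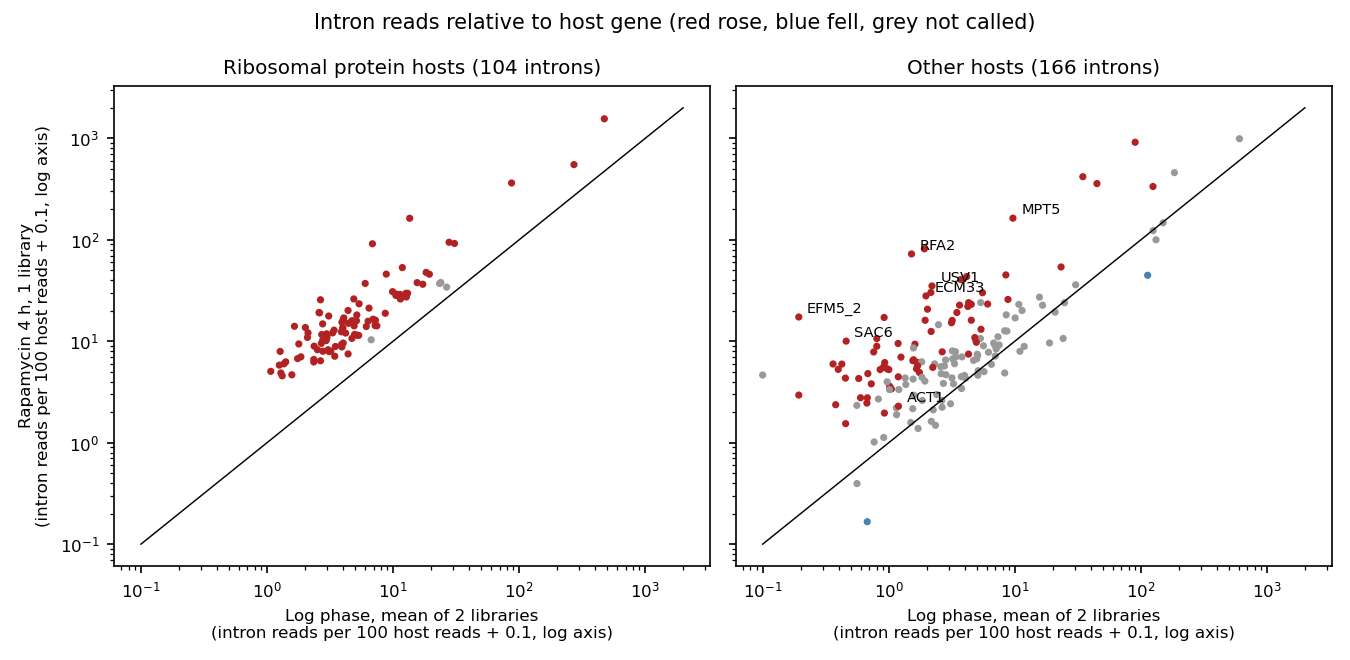
Intron reads per 100 host reads plus 0.1 at 4 h of rapamycin (y axis) against the mean of the 2 log-phase libraries (x axis), both on log axes, for introns of ribosomal protein genes (left) and of other genes (right). Points are introns, red where called higher, blue where called lower and grey where not called, and the line marks equal ratios. Ribosomal protein introns form a band above the line (100 of 104 called higher), while other introns scatter more widely, with EFM5_2, RFA2, SAC6 and MPT5 far above it.

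**Figure D5:**
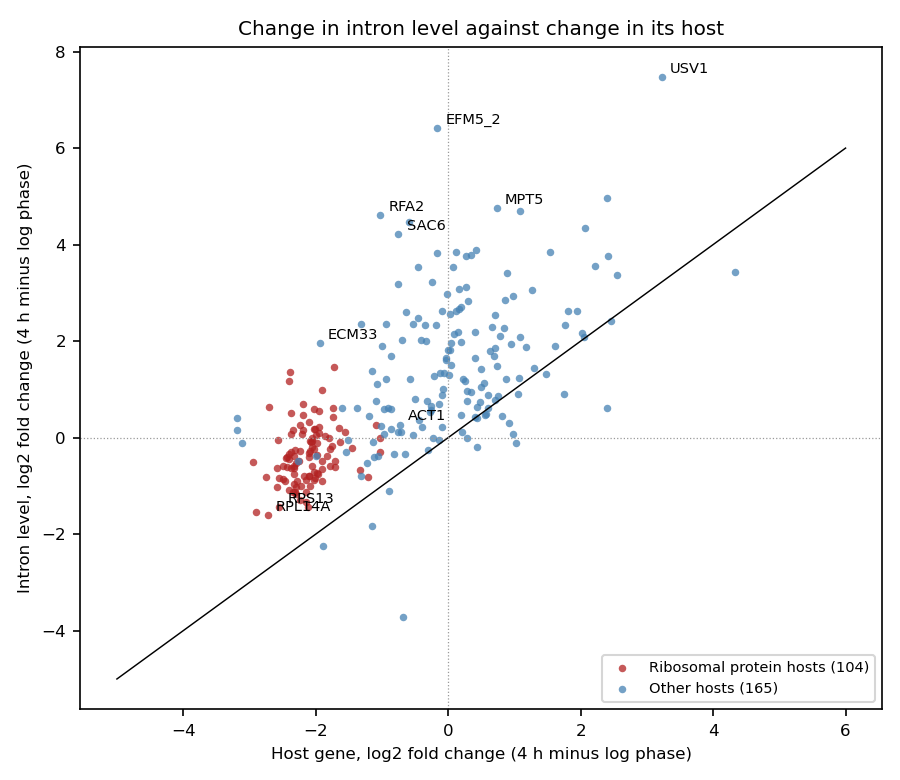
Change in intron level (y axis) against change in its host gene (x axis), both as log2 fold change at 4 h of rapamycin minus log phase, for 104 ribosomal protein introns (red) and 165 other introns with a tested host (blue). The diagonal marks equal change, so that height above it is the rise relative to host. The red points cluster at host changes near −2.11 and intron changes near −0.41, and many blue points lie at intron changes above 0.

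Of the 10 introns with the largest rises relative to host, the leading 3 held few reads in log phase. The second intron of EFM5 (host YGR001C, chromosome VII, 497133 to 498034 in R64; intron length 93 nt from the ratio of reads to TPM) had 1 and 0 reads in log phase, 4 at 1 h and 103 at 4 h. Its host had 535 and 146, 703 and 597 reads, so the ratio relative to host rose 118-fold with a 95% counting interval of 20.6 to 4685. The RFA2 intron (YNL312W, chromosome XIV, 48287 to 49216; 108 nt), in a gene for a subunit of replication protein A, had 1.46 and 1.37 reads per 100 host reads in log phase, 1.58 at 1 h and 72.4 at 4 h (log2 5.62 ± 0.59, adjusted p = 1.45e-18). The SAC6 intron (YDR129C, chromosome IV, 713340 to 715379; 111 nt), in the fimbrin gene, had 0.249 and 0.47, 0.125 and 9.94 (log2 4.99 ± 0.48). In each of these introns the 4 h library stood far above both log-phase libraries and the 1 h library. The fit relative to host took its spread from all introns together. Its small adjusted p-values thus do not measure how a given intron varies between cultures.

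The MPT5 intron (YGL178W, chromosome VII, 167352 to 170571; 640 nt), in the gene of a Pumilio-family RNA-binding protein, had 77 and 14 reads in log phase, 103 at 1 h and 2273 at 4 h. At 4 h these exceeded the 1392 reads of its host, 163 per 100 host reads against 11.2 and 7.91 (log2 4.02 ± 0.37). The ECM33 intron (YBR078W, chromosome II, 393123 to 394742; 330 nt) had 178 and 66 reads in log phase, 219 at 1 h and 1013 at 4 h, or 1.76 and 1.99, 1.70 and 27.9 per 100 host reads (log2 3.91 ± 0.37, adjusted p = 9.32e-22). By level it rose by a log2 value of 1.97 ± 0.54 while its host fell by 1.94, and the call for level was lost without log-phase replicate 1. The USV1 intron (YPL230W, chromosome XVI, 115312 to 116487; 75 nt) had 1 and 1 reads in log phase, 19 at 1 h and 400 at 4 h, with a ratio relative to host 19.8-fold higher (interval 5.44 to 164), in a gene that rose itself.

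The remaining large rises relative to host were in POP8, of ribonuclease P (6 reads in log phase in all, 73 at 4 h, log2 3.93 ± 0.71), YPR170W-B (2 reads, then 48, ratio 33.0 with an interval of 8.64 to 280), the second intron of YOS1 (4 reads, then 59, log2 3.70 ± 0.79) and RPS6B, a ribosomal protein gene. The RPS6B intron (352 nt) went from 7.20 and 6.33 per 100 host reads to 91.3 (log2 3.74 ± 0.36), the highest of the ribosomal protein introns by this change. By level the largest rises beside USV1, EFM5 and MPT5 were in the introns of MRA1 (3 and 2 reads, then 167) and HMRA1 (first intron, 1 read in all, then 31), both in genes that rose as well (host log2 changes of 2.403 and 1.09). With 1 log-phase read, the ratio relative to host for HMRA1 was 14.5 (95% counting interval 2.42 to 591). The ACT1 intron rose less, from 1.21 and 0.977 per 100 host reads to 2.19 (log2 0.98 ± 0.40, adjusted p = 0.0239), a call lost with limma and without either log-phase library in turn.

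Falls were few. The SNR17B intron, in a U3 small nucleolar RNA gene, had 51 and 16 reads in log phase, 7 at 1 h and 5 at 4 h, and fell relative to its host by a log2 value of −3.10 ± 0.71 and in level by −3.71 ± 0.62. The MRK1 intron fell relative to a host that rose (log2 −1.89 ± 0.60), yet its log-phase values were 206 and 20 per 100 host reads, a wide spread from 66 and 1 intron reads, and 44.6 at 4 h lies between them. By level PMI40 (45 and 10 reads, then 11, log2 −2.25 ± 0.57), RPL14A (523 and 129, then 207, −1.60 ± 0.44) and RPS13 (709 and 184, then 322, −1.43 ± 0.43) fell, all in genes that fell, and none of these calls was made without log-phase replicate 1.

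Measured by density, that is TPM of the intron as a percentage of the TPM of its host, 30 introns were denser than their host at 4 h, against 16 and 18 in the log-phase libraries. Of the 30, 15 were not denser than host in either log-phase library, and 0 of those 15 were at 1 h. These 15 were called higher relative to host in every case, but they were picked by that same ratio, so a rise was built in. None of them lay in a gene with a small nucleolar RNA. Of the 11 introns in such genes, 8 were already denser than host in each log-phase library and could not be picked. Of the 15 picked introns, the densest at 4 h were those of MPT5 (658%), RFA2 (551%), USV1 (549%), TDA5 (415%), AIM11 (248%), YPR170W-B (212%) and GPI15 (211%). The rest of the 15 were those of RPS6B (184%), SAC6 (173%), POP8 (162%), YCL012C (139%), the second of EFM5 (139%), the first of TAD3 (126%), RIM1 (118%) and ECM33 (109%). In log phase ECM33 stood at 6.87% and 7.77%, SAC6 at 4.32% and 8.17% and RFA2 at 11.1% and 10.4%. The lengths of the 15 introns ran from 67 to 640 nt with a median of 83. The median was 202 over all introns tested and 99 over introns outside ribosomal protein genes. Several rest on few reads, such as 12 at 4 h for TAD3.

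Reads in an intron that holds a small nucleolar RNA may come from that RNA or from the rest of the intron. The counts do not separate these, so a rise relative to host need not be one of intron RNA. For hosts that have 2 introns and hold a small nucleolar RNA, which intron contains it is not given. Both introns were therefore counted among the 11. They were not alike: the second intron of RPL7A had 74.8 and 99.2 reads per 100 host reads in log phase, and the first had 1.41 and 2.42. The ASC1 intron had 47.1 and 42.4 reads per 100 host reads in log phase, 297 at 1 h and 358 at 4 h, and its level changed by a log2 value of −0.11 while its host fell by 3.11. The TEF4 intron went from 39.9 and 29.2 to 419 and that of IMD4 from 100.1 and 79.9 to 916, both in hosts that fell by over 3 on the log2 scale. Of the 11 such introns 9 rose relative to host and 0 were called in level by edgeR, with a median level change of −0.11.

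The later time was also set directly against 1 h, each with 1 library. Of 5827 genes 308 were higher at 4 h (5.29%) and 57 lower (0.978%). Without saturated replicates 1 and 2 in turn these were 798 and 610, and 790 and 597, and DESeq2 gave 295 and 110. Ribosome assembly stood out by number: 42 of 55 small-subunit processome genes and 50 of 62 large-subunit factors were higher at 4 h than at 1 h, with medians of 2.39 and 2.50, against 9 of 137 ribosomal protein genes with a median of 1.23. NOP58 stood at 18.5 CPM at 1 h and 104 at 4 h (log2 2.45 ± 0.43, adjusted p = 0.0154), and RPA135 at 34.0 and 344 (3.30 ± 0.47). Of the 308 genes higher at 4 h than at 1 h, 120 were below log phase at 4 h by the test against log phase, 88 were above it and 100 were not called against it. The level of ribosome assembly genes at 4 h thus lay between 1 h and log phase.

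The largest differences between the times were in HXT4 (log2 5.77 ± 0.61), LEU1 (5.32 ± 0.93), PMA2, a second plasma membrane proton pump gene (37.9 CPM at 1 h and 721 at 4 h), DPA10, DAK2 and ISF1. INO1, inositol phosphate synthase, was lowest relative to 1 h: it stood at 37.1 and 35.7 CPM in log phase, 1998 at 1 h and 35.8 at 4 h (log2 −5.84 ± 0.48, adjusted p = 0.00408). CHA1, a serine and threonine deaminase, stood at 42.4 and 16.0 CPM, 256 and 17.1, and CPS1, CAR1, SAM2 and CWP1 were lower at 4 h as well. Of the 57 genes lower at 4 h than at 1 h, 36 were below log phase, 2 were above it and 19 were not called against it. For nitrogen permeases the times differed for 1 of 12 members, and for general stress genes for 2 of 36, shares near the 6.26% of all genes called between the times.

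Introns relative to host also differed between the times. By the same fit, 167 of 270 were higher at 4 h than at 1 h (61.9%) and 2 were lower (0.741%), 62.6% in either direction, and limma called 80 and 1. The SAC6 intron differed by a log2 value of 6.29 ± 0.50, RFA2 by 5.49 ± 0.60, MPT5 by 4.13 ± 0.41 and ECM33 by 4.03 ± 0.42. Both introns that were lower, in NOG2 (9074 per 100 host reads at 1 h, 991 at 4 h) and the second of RPL7B (1629 and 551), lie in genes with a small nucleolar RNA. At 1 h, 39 of the 104 ribosomal protein introns stood above both log-phase libraries relative to host and 40 below both, whereas at 4 h all 104 stood above both.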

How the data were processed

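Per the labels' protocols, ribosomal RNA was removed from total RNA, and the rest was fragmented and read as short single reads. The submitters' processing notes name cutadapt 1.8, STAR 2.4 and build R64 (sacCer3). How reads were counted, on which annotation and whether by strand is not given in the sources used here. The authors deposited read counts per gene and intron, and TPM for the same features, which served here for densities and intron lengths. Of 6665 identifiers 5989 matched a symbol in the R64 RefSeq table and 676 did not.

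Genes were tested with edgeR 4.0.16 (R 4.3.3) by its quasi-likelihood test on the deposited counts of all 7 libraries (5 groups). Scaling was by TMM, genes with low counts were removed by edgeR's filterByExpr, and calls were made at a two-sided Benjamini-Hochberg adjusted p of 0.05. The fit had 2 residual and 6.94 prior degrees of freedom. Introns with at least 10 reads in 1 library (270 of 300) were tested relative to host in one edgeR fit with terms for library, kind of feature and kind by group, whose prior degrees of freedom were infinite, and by level with the gene scaling. Alternatives used DESeq2 1.42.0 and limma 3.58.1. Values after ± are standard errors. Counting intervals are exact at 95% and cover counting error only. Genes with 3 or fewer pooled log-phase reads are given by such ratios. The steps were tested on simulated data.

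The comparison, the 42 gene lists and the tests were chosen with earlier results of these data known. Named genes are, of called genes with a standard symbol and a mean of at least 10 CPM, the 15 that rose and the 15 that fell most, up to 5 of each list ranked by change (lists of up to 10 in full), the 6 largest differences each way between the times, and TOR1, TOR2, FPR1, ECM33 and ACT1. The largest rises and falls changed the same way against both log-phase libraries. Introns are, on that condition and with at least 20 reads, the 10 largest rises and up to 5 largest falls relative to host, the 5 largest each way in level, and ECM33, SAC6, RFA2 and ACT1. URA3, MRK1, the strain marker genes, members that complete a short count, the introns denser than their host and those with small nucleolar RNAs were named after their values were seen.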

Additional observations from a re-analysis of the deposited data

Results flagged for a closer look

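Each of the following differed between 4 h and 1 h of rapamycin by edgeR's test of that difference, at an adjusted p of 0.05, with 1 library at each time. Values are log2 changes, 4 h minus 1 h, and fitted values of genes with few reads depend on the prior count.

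Among the largest rises against log phase, the 4 h library was higher than the 1 h library for DAK2 (4.66), ISF1 (4.48), DPA10 (6.97), PIR3 (3.65), SHH3 (3.24), SPS100 (4.01), LEE1 (3.40), RRT1 (2.46) and HSP30 (3.27). Among the largest falls CWP1 (−2.93) and UTR2 (−2.79) were lower at 4 h than at 1 h, whereas URA7 (2.21) and RKI1 (2.10) were higher. HXT4 (5.77), LEU1 (5.32) and PMA2 (4.20) were higher at the later time, and INO1 (−5.84), CHA1 (−3.94), CPS1 (−3.49), CAR1 (−3.16) and SAM2 (−2.97) were lower.

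Relative to host, the introns of SAC6 (6.29), RFA2 (5.49), YOS1 (second intron, 4.99), EFM5 (second intron, 4.83), POP8 (4.43), MPT5 (4.13), YPR170W-B (4.04), ECM33 (4.03), RPS6B (3.94), HMRA1 (first intron, 3.59), USV1 (3.15), MRA1 (2.21), RPS13 (1.56) and ACT1 (0.98) were higher at 4 h than at 1 h.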

How the results depend on the processing

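The 4 h condition is 1 library, so its calls rest on the spread of other groups, and depth limits introns with few reads. No paired analysis was possible because the 4 h library carries no replicate number and the groups compared share fewer than 2 numbers. Promoter motifs were not searched, since no sequences were used here. Without each log-phase and each saturated library in turn (the 1 h and lawn libraries were not left out), genes higher than log phase numbered 392 to 1229 and lower 296 to 1535. Introns relative to host numbered 131 to 175 higher and 1 to 2 lower, and introns by level 11 to 69 and 1 to 49. Between 4 h and 1 h, genes numbered 312 to 798 higher and 55 to 610 lower. With log-phase and 4 h libraries alone, 1449 genes were higher and 1292 lower, and with plain library totals 423 were lower. DESeq2 gave 654 higher and 697 lower, and RLE factors 855 and 853. Genes lower at 4 h than at 1 h numbered 110 with DESeq2, 111 with RLE factors and 99 with no filter. Setting the median intron to no change, by construction, left 24 introns higher and 10 lower than log phase relative to host, and 26 and 13 against 1 h. limma called 1 lower than log phase, and 80 higher and 1 lower than at 1 h, and without small nucleolar RNA hosts 0 were lower than at 1 h. With at least 50 intron reads, 30 rose in level. Among named genes and introns, no log2 change against log phase turned sign in the alternatives checked. The setting of the median intron to no change was left out of that check. Some list medians did turn sign under plain library totals, as given above. For the remaining changes the cause was not tested.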

Other observations

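U3 small nucleolar RNA, which guides cleavage of the ribosomal RNA precursor, is given by its genes SNR17A and SNR17B. SNR17A took the highest TPM of any gene at 4 h, 39270 against 17810 and 22630 in log phase and 28250 at 1 h, and SNR17B stood at 3709 TPM against 3556 and 4702. Neither passed the edgeR test against log phase, with log2 changes of 0.43 ± 0.58 (adjusted p = 0.613) for SNR17A and −0.68 ± 0.54 (adjusted p = 0.383) for SNR17B. Their reads share near-identical sequence, so the split is uncertain. Per length, the genes next in level at 4 h were HSP26 (14350 TPM), then PDC1, pyruvate decarboxylase (11370 TPM, 14960 and 16100 in log phase), FBA1, aldolase (8738 TPM, 12520 and 14020), TDH3, glyceraldehyde-3-phosphate dehydrogenase (8485 TPM, 12780 and 15600), and LEU1 (6264 TPM, 609 and 324). In log phase HSP26 stood at 58.8 and 146 TPM. These genes were chosen for their level after their values were seen.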
